A study of Mus musculus with 12 samples.

Results

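Ba/F3 cells carrying ETV6 P214L were set against Ba/F3 cells carrying wild-type ETV6 (ETV6 WT), using the read counts of 6 of the 12 libraries of the study, 3 in each group. Ba/F3 is an established mouse pro-B cell line that normally needs interleukin-3 (IL-3) to grow. All cells carried NRAS G12D, a constitutively active RAS protein, and each construct was joined by an internal ribosome entry site to ZsGreen, a green fluorescent protein. Cells were sorted into medium (DMEM with serum) lacking IL-3, and RNA was taken on day 3. The other 6 libraries came from cells with ETV6 I209S P214L (3 libraries) and from cells with ZsGreen alone (3 libraries), with the same NRAS G12D and the same withdrawal of IL-3. Their values are set beside the comparison below. No label states that replicate libraries were grown as separate cultures, so each p-value measures only the spread between these libraries, which may be technical.

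ETV6 belongs to the ETS family of transcription factors, which bind DNA at sites with a GGAA core. It represses its targets from the nucleus, recruits corepressors such as SIN3 and the NCoR and SMRT complexes, and is required for normal blood stem cells and platelets. Inherited changes in its central region, among them P214L, cause low platelet counts and a tendency to leukaemia. By the study's design, P214L places a new nuclear export sequence in the protein and I209S breaks it again, so the comparison of P214L with WT asks which of the transcript changes made by ETV6 are lost when the protein carries that sequence.

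The constructs could not be told apart from the cells' own gene by counts, which are per gene. Levels are in CPM, a gene's reads scaled to the size of its library. Etv6 (ENSMUSG00000030199; mm39 chromosome 6, 134012663 to 134247121) had 103, 98.4 and 108 CPM in the P214L libraries, against 122, 103 and 102 CPM in the WT libraries. The groups overlapped and the gene was not called (log2 fold change -0.08 ± 0.09 SE, adjusted p = 0.606). With ZsGreen alone, and so no ETV6 construct, Etv6 already averaged 81.7 ± 5.03 CPM. P214L cells lay 1.26-fold and WT cells 1.33-fold above that level, so near-equal Etv6 counts do not measure equal construct levels. Nras averaged 80.9 ± 1.91 CPM in P214L cells and 76.5 ± 0.434 CPM in WT cells (SD, n = 3 each) and was not called either (adjusted p = 0.497). Il3 had no count in either group, which allows up to 0.0642 CPM in P214L cells and 0.0568 CPM in WT cells, counting error only. Xpo1, the exportin that carries proteins with such export sequences out of the nucleus, stood at 223, 222 and 229 CPM in P214L libraries, against 156, 165 and 176 CPM in WT libraries. The groups were apart and Xpo1 was 1.36-fold higher in P214L cells (log2 fold change 0.44 ± 0.06, adjusted p = 2.55e-05). It was not raised above the level with ZsGreen alone. Xpo1 averaged 255 ± 4.63 CPM in ZsGreen cells and 159 ± 3.98 CPM in I209S P214L cells.

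The labelled pro-B identity was thin in the transcripts. Of 20 B-lineage genes, 11 had no count in any of the 6 libraries, among them Ebf1, Rag1, Il7r and Igll1, and 3 passed the filter on low counts. Pax5, the B-lineage commitment factor, had 4 counts summed over the P214L libraries and 1 over the WT libraries. Bank1, a B-cell scaffold protein, rose to 39.9 ± 1.26 CPM in P214L cells, against 21.3 ± 1.65 CPM in WT cells (adjusted p = 3.44e-06), and Cd79b, a B-cell receptor chain, averaged 11.6 ± 1.12 and 7.07 ± 0.689 CPM in the same order (adjusted p = 0.0187), a call lost without P214L 2 or without WT 3. Gata2, a factor of progenitor and mast cells, was at 1753 ± 38.2 CPM in P214L cells and 2571 ± 371 CPM in WT cells.

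Library totals lay between 14767981 and 17241881 counts with P214L and between 16392565 and 18607595 with WT. The 18S ribosomal transcript, which poly-A selection should largely remove, took 3.88 to 5.90% of counts in P214L libraries and 1.58 to 3.64% in WT libraries, ranges that did not overlap, and leaving out ribosomal and mitochondrial genes gave 2252 genes higher and 2112 lower. WT 1 stood apart from the other WT libraries on the second principal component (22.4, against -1.54 and -5.09) and had the lowest 18S share. The first libraries of ZsGreen (70.7, against -7.09 and -10.2) and of I209S P214L (21.2, against -6.94 and -7.63) stood apart in the same direction. Each also had the lowest 18S share of its group. The P214L libraries lay at -28.5, -21.2 and -26.1, and the cause was not tested. Leaving out WT 1 gave 2051 genes higher and 1890 lower. Leaving out the first libraries of WT, ZsGreen and I209S P214L gave 2558 higher and 2209 lower.

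Of 14794 genes with enough counts to test, 2157 were higher in P214L cells (14.6%) and 2162 were lower (14.6%), together 29.2%, by edgeR's quasi-likelihood test at a Benjamini-Hochberg adjusted p under 0.05. The median change of all genes was -0.00174 on the log2 scale, and that of the called genes was 0.50 in size with a median SE of 0.10. Most calls were therefore shallow: 755 reached 2-fold, 376 of them higher and 379 lower. At 4-fold there were 164 higher and 117 lower, and at 16-fold 63 higher and 38 lower. The 3 libraries of one group lay wholly above or below those of the other for 6710 genes (45.4%), and for 98.1% of the called genes. Among 11312 protein-coding genes tested, 35.5% were called, against 10.7% of 1746 long noncoding RNAs. Among the 14794 genes tested here, the authors' deposited table called 4580 for the same pair of groups, of which 4189 were also called here, each in the same direction.

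**Figure D1:**
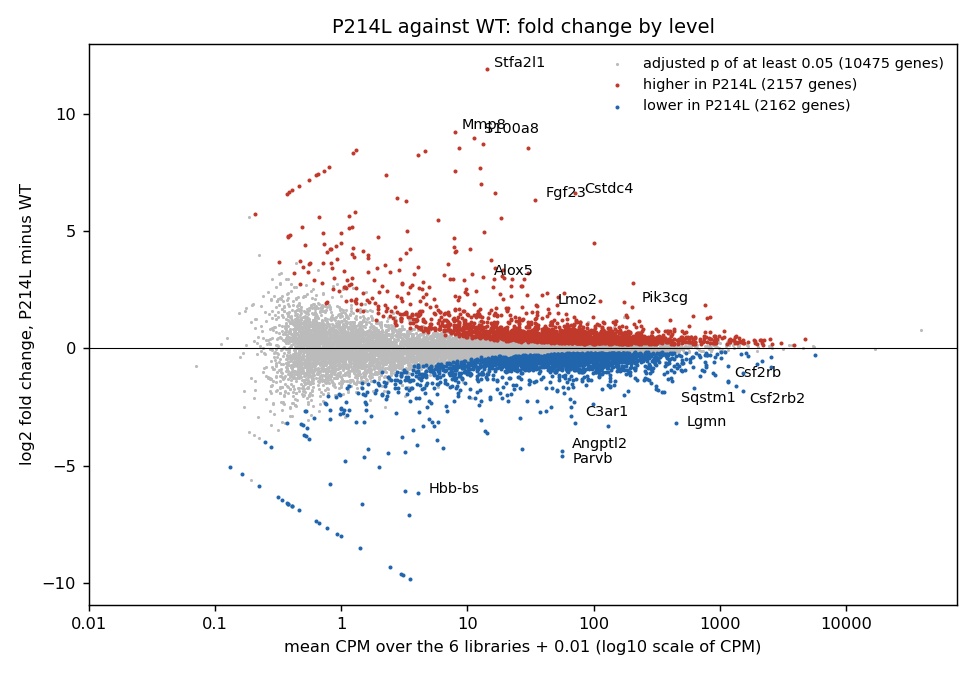
Each point is 1 of the 14794 tested genes, with the mean CPM of the 6 libraries on a log axis across and the log2 fold change of P214L over WT up, coloured by call. The calls lay on both sides of 0 in near equal number, 2157 higher and 2162 lower, and the points far above 0 at low mean CPM include stefin and granule genes that had 0 or a few counts in WT cells, whose fitted fold depends on the prior count.

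The largest rises among protein-coding genes of at least 5 CPM were led by stefins and genes of neutrophils and monocytes. 14 of the 17 tested members of a list of neutrophil and monocyte genes rose and 1 fell, against a background of 14.6% in each direction, with a median log2 change of 2.98 where all genes had -0.00174. Of 10 stefin genes, 9 were tested and all 9 rose, with a median of 7.57. These genes passed the filter through the groups in which they are high, so the counts describe the lists. Of the 9 untested neutrophil genes, Ly6c2, Ly6g, Csf3r and Retnlg had no count in either group, Elane, Ctsg, Camp and Chil3 had at most 5 counts in a group, and Cybb, a chain of the phagocyte oxidase, had 19 counts in P214L and 2 in WT. Summed over the tested members of the neutrophil list, the level was 766 to 820 CPM in P214L libraries and 376 to 402 CPM in WT libraries.

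Stefins are small inhibitors of cysteine cathepsins, and mice carry a cluster of them on chromosome 16. Stfa2l1 (ENSMUSG00000059657, chromosome 16, 35977181 to 35982323 on mm39) stood at 43.5, 18.6 and 24 CPM in the P214L libraries and had no count in any WT library. With 1310 counts against 0, it was at least 494-fold higher in P214L cells, taking 3 counts over the group as the floor. Cstdc4 stood at 192, 103 and 124 CPM in P214L libraries, against 1.22, 1.65 and 1.33 CPM in WT libraries. Its groups were apart by a wide margin and it rose 99.1-fold (log2 fold change 6.63 ± 0.27, adjusted p = 6.34e-12). Cstdc5 averaged 59.7 ± 17.4 CPM in P214L cells and 0.153 ± 0.215 CPM in WT cells, and Csta2 averaged 32.6 ± 11.5 CPM in P214L cells and 0.323 ± 0.0684 CPM in WT cells. Csta3 had 785 counts in P214L and 2 in WT, a ratio of 444 with a 95% counting interval of 122 to 3669. Stfa1 (127-fold), Stfa2 (190.4-fold) and Stfa3 (204-fold) rose as well. They had 10, 4 and 6 counts in WT, in that order, so the size of these folds is uncertain. P214L 1 held the highest value of each of these 8 genes. The stefins are near copies of each other, so the split of reads among them is uncertain.

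S100a8 and S100a9 encode the 2 chains of calprotectin, an abundant neutrophil protein that binds calcium and zinc. S100a8 (ENSMUSG00000056054, chromosome 3, 90576285 to 90577342 on mm39) had 28.6, 17.8 and 21.1 CPM in P214L libraries, against 0, 0.114 and 0 CPM in WT libraries. That is 1036 counts in P214L against 2 in WT, a ratio of 585 with a counting interval of 162 to 4841. S100a9 had 1229 counts against 3, a ratio of 463 (158 to 2248). Mmp8, the neutrophil collagenase, had 18.5, 14.9 and 14.6 CPM in P214L libraries, against 0, 0.0570 and 0 CPM in WT libraries, or 743 counts against 1. In all 3 genes every P214L library lay above every WT library, and in WT cells they were close to undetected at this depth. Lyz2, the lysozyme of myeloid cells, stood at 43.0, 28.7 and 36.8 CPM in P214L libraries, against 0.733, 0.969 and 0.585 CPM in WT libraries, and rose 47.1-fold (log2 fold change 5.56 ± 0.37, adjusted p = 3.54e-09). Ncf1, a cytosolic subunit of the phagocyte oxidase, was the member that fell.

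Promoter windows of 3 stefins, both calprotectin chains, Mmp8 and Lyz2 are shown because each holds the ETS-type hexamer GGAAGT, on one strand or the other, within 250 bases before the gene start. It lay in 3 of the 8 stefin promoters in the table (37.5%), and the other 5 lacked it. They run 5′ to 3′ along the gene's strand, come from RefSeq on GRCm38.p6, and have the hexamer or its complement in capitals.
Stfa2l1 (chr16:36156608-36156667, plus strand): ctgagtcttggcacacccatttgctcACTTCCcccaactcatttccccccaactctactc
Stfa2 (chr16:36408503-36408562, minus strand): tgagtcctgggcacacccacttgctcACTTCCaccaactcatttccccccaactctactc
Csta3 (chr16:36210158-36210217, plus strand): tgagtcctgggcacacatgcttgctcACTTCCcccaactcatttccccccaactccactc
S100a8 (chr3:90668873-90668932, plus strand): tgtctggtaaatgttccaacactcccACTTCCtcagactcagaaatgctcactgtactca
S100a9 (chr3:90695876-90695935, minus strand): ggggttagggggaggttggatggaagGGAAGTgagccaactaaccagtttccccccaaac
Mmp8 (chr9:7558182-7558241, plus strand): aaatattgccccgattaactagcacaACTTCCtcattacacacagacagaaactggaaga
Lyz2 (chr10:117282339-117282398, minus strand): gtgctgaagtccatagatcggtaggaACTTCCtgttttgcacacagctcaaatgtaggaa
Aligned on the hexamer without gaps, the windows of Stfa2 and Csta3 were identical at 55 of 60 bases, those of Stfa2l1 and Stfa2 at 51, and those of Stfa2l1 and Csta3 at 48. The hexamer itself is common: it lay in 32.5% of the promoters of genes at least 2-fold higher in P214L cells, 18.9% of those of genes at least 2-fold lower and 29.4% of those of all tested genes.

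Beyond the myeloid granule genes, the rises took in secreted, signalling and surface proteins. Fgf23, a hormone that lowers blood phosphate (ENSMUSG00000000182, chromosome 6, 127049865 to 127058371 on mm39), stood at 62.3, 75.2 and 67.5 CPM in P214L libraries, against 0.916, 0.798 and 0.798 CPM in WT libraries. The groups were far apart, an 81.2-fold difference (log2 fold change 6.34 ± 0.24, adjusted p = 3.22e-12). Shank3, a scaffold protein known from synapses, averaged 11.3 ± 3.00 CPM in P214L cells and 0.244 ± 0.219 CPM in WT cells. Ifitm6, a member of the interferon-induced transmembrane family found in myeloid cells, averaged 26 ± 3.06 and 0.844 ± 0.224 CPM in P214L and WT cells (30.8-fold, adjusted p = 3.48e-10).

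Genes around the first step of leukotriene synthesis were among the rises. Alox5, the lipoxygenase that starts leukotriene synthesis, stood at 18.5, 26.2 and 26.7 CPM in P214L libraries, against 3.48, 2.85 and 2.39 CPM in WT libraries. It rose 8.21-fold (log2 fold change 3.04 ± 0.18, adjusted p = 7.03e-10), with no overlap. Alox5ap, the protein that presents arachidonic acid to it, rose 1.86-fold. Of 11 tested genes of leukotriene and prostaglandin synthesis 5 rose, 1 fell and 5 were not called, against 14.6% of all genes in each direction. The one that fell was Ptgs1, a cyclooxygenase of the prostaglandin branch, at 221 ± 3.66 CPM in P214L cells and 288 ± 25.5 CPM in WT cells. Itgal, the alpha chain of the leukocyte integrin LFA-1, rose 6.32-fold to 46.7 ± 4.33 CPM in P214L cells, against 7.42 ± 1.70 CPM in WT cells. Its partner in cell contacts, Icam1, rose 2.18-fold.

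**Figure D2:**
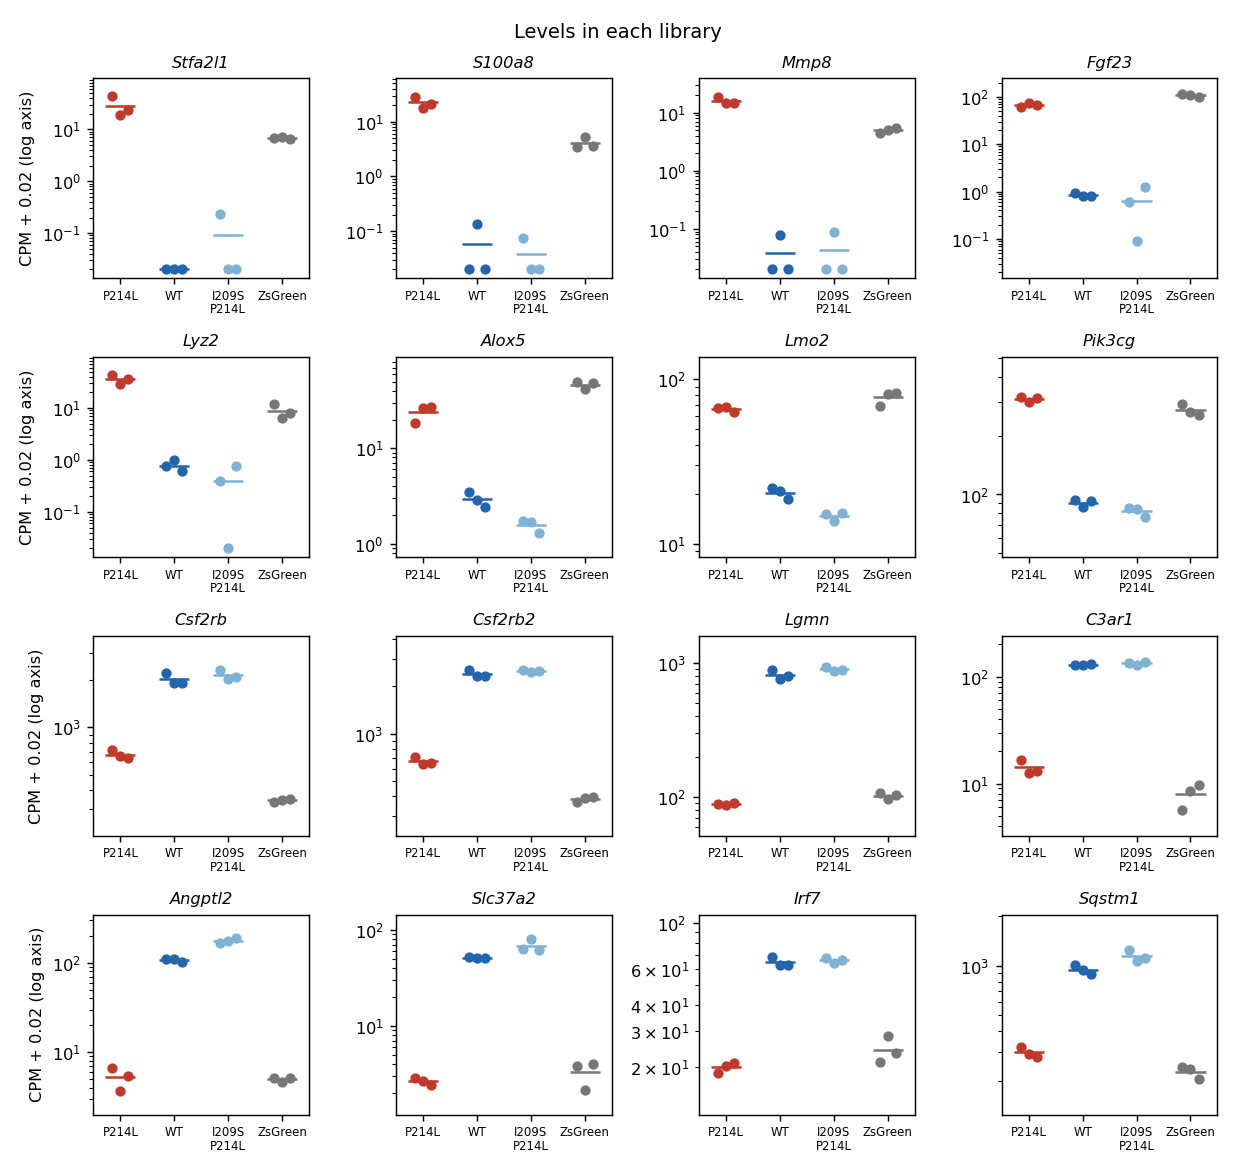
CPM of 16 genes in each library on a log axis (0.02 added), with a column of 3 points for P214L, WT, I209S P214L and ZsGreen in each panel and a line at the group mean. On this scale the P214L mean lies nearer to the ZsGreen mean than to the WT mean in all 16 panels, and Csf2rb and Csf2rb2 lie in between, at 671 and 668 CPM with P214L against 343 and 385 CPM with ZsGreen.

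The largest falls among protein-coding genes of at least 5 CPM began with genes of adhesion, secretion and transport. Parvb, an adaptor that links integrins to actin, stood at 4.50, 5.32 and 3.60 CPM in P214L libraries, against 127, 98.9 and 99.6 CPM in WT libraries. It was 24.2-fold lower in P214L cells (log2 fold change -4.59 ± 0.19, adjusted p = 6.98e-12). Angptl2, a secreted angiopoietin-like protein, stood at 6.65, 3.66 and 5.36 CPM in P214L libraries, against 110.0, 109 and 102 CPM in WT libraries (20.6-fold lower). Slc37a2, a sugar-phosphate transporter of macrophages, stood at 2.84, 2.66 and 2.42 CPM in P214L libraries, against 52.0, 51.2 and 50.6 CPM in WT libraries (19.4-fold lower). In all 3 genes the groups were more than an order of magnitude apart.

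Lgmn, which encodes the lysosomal protease legumain (ENSMUSG00000021190, chromosome 12, 102360343 to 102406072 on mm39), stood at 89.3, 87.3 and 90.2 CPM in P214L libraries, against 883, 764 and 802 CPM in WT libraries. It fell 9.18-fold (log2 fold change -3.20 ± 0.07, adjusted p = 3.59e-15). C3ar1, the receptor for complement fragment C3a, fell 9.17-fold to 14.1 ± 2.30 CPM in P214L cells, against 129 ± 1.37 CPM in WT cells. C3ar1 belongs to the list of macrophage receptors and proteases, of which 5 of 16 tested members rose and 6 fell. Of all genes 14.6% were called in each direction. Adgre1, the gene of the F4/80 macrophage antigen, fell 2.46-fold, and Lilrb4a, an inhibitory receptor of myeloid cells, fell 3.5-fold. Cd14, the co-receptor for bacterial lipopolysaccharide, rose 7.86-fold to 13.6 ± 4.73 CPM in P214L cells, against 1.72 ± 0.360 CPM in WT cells. Marco and Mertk, receptors of mature macrophages, had no count in either group.

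The other genes among the 15 largest falls covered transport, secretion and signalling. Aqp3, a water and glycerol channel, averaged 0.642 ± 0.420 CPM in P214L cells and 12.1 ± 0.478 CPM in WT cells. Il34, a ligand of the CSF-1 receptor, averaged 2.19 ± 0.713 CPM in P214L cells and 25.2 ± 2.02 CPM in WT cells. Lat, an adaptor of antigen receptor and mast cell signalling, fell 6.43-fold to 11.3 ± 1.85 CPM in P214L cells, against 73.1 ± 10.8 CPM in WT cells. Padi2, a peptidyl arginine deiminase, fell 7.45-fold, Gstm1, a glutathione transferase, 8.92-fold, and Cela1, an elastase, 5.67-fold. Tmem171 (14.9-fold), Ky (12.1-fold) and Muc6 (6.36-fold) fell too. Hba-a1, an alpha globin gene, stood at 14.2, 36.7 and 20.1 CPM in P214L libraries, against 202, 208 and 295 CPM in WT libraries, and fell 9.85-fold. Its reads can be shared with the near-identical copy of the gene.

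The shared receptor of IL-3, IL-5 and GM-CSF was among the abundant transcripts that fell. Csf2rb, the common beta chain of this receptor (ENSMUSG00000071713, chromosome 15, 78209952 to 78238047 on mm39), stood at 720.2, 656 and 638 CPM in P214L libraries, against 2236, 1912 and 1932 CPM in WT libraries. It was 3.02-fold lower in P214L cells (log2 fold change -1.59 ± 0.07, adjusted p = 1.75e-11). Csf2rb2, the mouse beta chain used by IL-3 alone, lies beside it (ENSMUSG00000071714, chromosome 15, 78166707 to 78189921) and stood at 709, 638 and 655 CPM in P214L libraries, against 2528, 2319.5 and 2324 CPM in WT libraries (3.58-fold lower, adjusted p = 3.39e-13). Neither gene's groups overlapped. They are close paralogs, so part of their reads may be exchanged between them, although the 2 moved the same way.

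Of 17 tested genes of this receptor family and its kinases 10 fell and 1 rose, against 14.6% of all genes in each direction. Their median was -0.28 on the log2 scale. Lyn, a SRC-family kinase bound to the receptor, stood at 261 to 265 CPM in P214L libraries and 389.5 to 395 CPM in WT libraries. The member that rose was Jak1, and without WT 1 there were 2 such members. Of 15 tested targets of STAT5, which acts downstream of this receptor, 5 rose and 2 fell, the falls being near the 14.6% of all genes. Id1, an inhibitor of basic helix-loop-helix factors, rose 2.95-fold to 53.5 ± 6.16 CPM in P214L cells, against 18.1 ± 0.590 CPM in WT cells. Pim1, a survival kinase induced by STAT5, rose 1.67-fold, and the granule protease Gzmb fell 4.76-fold.

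Ppbp, a platelet chemokine, was lowest with P214L among the 4 groups, with 6.24 to 7.32 CPM in P214L libraries, 16.2 to 17.2 CPM in WT libraries, 11.5 to 12.5 CPM in I209S P214L libraries and 10.3 to 15.99 CPM in ZsGreen libraries. All 9 other libraries lay above the P214L libraries, and Ppbp was 2.46-fold lower in P214L than in WT cells (log2 fold change -1.30 ± 0.17, adjusted p = 9.46e-06). Gsto1, an omega-class glutathione transferase, was at its highest with P214L, at 408, 397 and 394 CPM, against 257, 249.8 and 223 CPM in WT libraries, with 221 to 226 CPM in I209S P214L libraries and 253 to 291 CPM in ZsGreen libraries. Of 17 tested megakaryocyte and platelet genes, Ppbp included, 6 rose and 8 fell, against 14.6% of all genes in each direction. Nbeal2, needed for platelet alpha granules, fell 2.23-fold to 563 ± 14.7 CPM in P214L cells, against 1254 ± 92.7 CPM in WT cells. Plek, a platelet kinase substrate, rose 1.4-fold, and Pf4, Gp9, Selp, Thbs1 and P2ry1 were also higher. Changes in the list ran from -2.79 to 2.75 on the log2 scale. In it 2 members were at least 2-fold higher and 4 at least 2-fold lower.

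Interferon-stimulated genes were mostly lower with P214L. Of 35 tested members 23 fell and 2 rose (Ifitm6 and Ifitm3), against 14.6% of all genes in each direction, and 11 fell at least 2-fold. The median was -0.69 on the log2 scale, and the summed level was 1198.5 to 1223.9 CPM in P214L libraries and 1711 to 1741 CPM in WT libraries. Oasl2, an oligoadenylate synthetase-like antiviral protein, stood at 9.91, 9.04 and 11.6 CPM in P214L libraries, against 46.8, 50.04 and 49.8 CPM in WT libraries, and was 4.81-fold lower (adjusted p = 5.55e-10). Irf7, the regulator that amplifies type I interferon, stood at 18.7, 20.1 and 20.9 CPM in P214L libraries, against 68.4, 62.6 and 62.5 CPM in WT libraries (3.24-fold lower, adjusted p = 1.21e-09). Neither gene's groups overlapped. Ddx58, the RNA sensor RIG-I, fell 2.50-fold to 41.6 ± 2.18 CPM in P214L cells, against 104 ± 11.6 CPM in WT cells. In ZsGreen cells these 3 genes averaged 17.6, 24.2 and 50.1 CPM, somewhat above P214L, and in I209S P214L cells 46.9, 65.9 and 103 CPM.

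Antigen presentation by MHC class I, much of which interferon also controls, was lower too, with 9 of 20 tested genes lower. The chaperone Calr alone was higher, and the median was -0.22. Of all genes 14.6% were called in each direction. The falls of at least 2-fold were 3 neighbouring nonclassical class I genes of chromosome 17. H2-T23 stood at 120.4, 130.2 and 120.0 CPM in P214L libraries, against 339.5, 309.8 and 304 CPM in WT libraries (2.57-fold lower, adjusted p = 4.43e-11). H2-T22 fell 2.62-fold and H2-T24 2.59-fold, and class I genes share sequence, so that their split is uncertain. B2m, the light chain of every class I molecule, averaged 411 ± 9.51 CPM in P214L cells and 583 ± 57.6 CPM in WT cells (1.42-fold lower).

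Windows of B2m, H2-T22 and H2-T23 are printed as the named class I genes with GAAANNGAA, the core of an interferon-response element, before the start (GRCm38.p6, RefSeq, 5′ to 3′ along the gene, motif or complement in capitals).
B2m (chr2:122147522-122147581, plus strand): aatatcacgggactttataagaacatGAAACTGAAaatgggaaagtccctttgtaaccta
H2-T22 (chr17:36042899-36042958, minus strand): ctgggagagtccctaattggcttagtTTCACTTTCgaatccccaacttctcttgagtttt
H2-T23 (chr17:36032791-36032850, minus strand): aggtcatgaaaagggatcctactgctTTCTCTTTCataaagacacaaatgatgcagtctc
The motif lay in 46.9% of the 32 promoters of the tested interferon genes that had one in the table, against 7.11% of those of all tested genes. It lay in 9.94% of the promoters of genes at least 2-fold higher in P214L cells and in 11.1% of those of genes at least 2-fold lower.

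Of 27 tested lysosomal genes 16 fell and 2 rose, against 14.6% of all genes in each direction, with a median of -0.37. Man2b1, the lysosomal alpha-mannosidase, stood at 563, 593 and 573 CPM in P214L libraries, against 1375, 1104 and 1125 CPM in WT libraries, and was 2.08-fold lower (adjusted p = 4.53e-08), with no overlap. The protease cathepsin B (Ctsb) fell 1.75-fold. The 2 members that rose were Ctsd, the gene of cathepsin D, at 272 to 289 CPM in P214L libraries and 196.5 to 219.7 CPM in WT libraries, and Cd68, a lysosomal membrane protein of myeloid cells, at 20.9 to 23.2 CPM in P214L libraries and 6.04 to 9.12 CPM in WT libraries. The palindrome TCACGTGA, bound by the MiT/TFE factors that control lysosomal genes, lay in 4 of the 23 promoters (17.4%) of the tested lysosomal genes. It lay in 1.83% of the promoters of all tested genes, 2.03% of those of all lower genes and 1.46% of those of all higher genes. For genes at least 2-fold lower the share was 0.599%, and for genes at least 2-fold higher 0.301%. Among the 8 tested MiT/TFE and folliculin genes 3 fell and 2 rose (Tfec and Tfe3), with 0 or 1 rising when any 1 of the 6 libraries was left out. Mitf fell 4.71-fold to 7.32 ± 0.722 CPM in P214L cells, against 34.6 ± 0.816 CPM in WT cells, and Fnip2, a partner of folliculin, fell 2.99-fold. Tfeb was 1.68-fold lower. Tfe3 was 1.30-fold higher with a call that was lost without P214L 1, P214L 3, WT 2 or WT 3.

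Sqstm1, the autophagy receptor p62, stood at 321, 293 and 280.4 CPM in P214L libraries, against 1015, 943 and 893 CPM in WT libraries. It fell 3.19-fold (log2 fold change -1.67 ± 0.08, adjusted p = 4.31e-11), the deepest fall among 24 tested autophagy genes, of which 10 fell and 4 rose. Map1lc3b, the lipidated autophagosome protein LC3B, fell 1.52-fold, and Nbr1, another cargo receptor, 1.51-fold. Sqstm1 is also a target of the antioxidant factor NRF2, and of 22 tested NRF2 genes 7 fell and 4 rose. Hmox1, heme oxygenase, fell 2.26-fold to 54.3 ± 2.12 CPM in P214L cells, against 123 ± 4.02 CPM in WT cells, and Ftl1, the ferritin light chain, fell 1.61-fold. Abca1, which exports cholesterol, fell 3.10-fold, one of 9 of 19 tested carriers and channels that fell, with 3 that rose. P2rx4, an ATP-gated channel of lysosomes and the cell surface, fell 2.02-fold. Of all genes 14.6% fell and 14.6% rose. The rises among autophagy genes (16.7%), NRF2 genes (18.2%) and carriers and channels (15.8%) were near that share.

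Genes of growth and division rose in small steps. All 30 genes of the MYC and ribosome biogenesis list were tested, 25 rose and none fell, with a median of 0.50. Of 30 DNA replication genes 26 rose and none fell (median 0.45), and of 30 mitosis and spindle genes 28 rose and none fell (median 0.48). Of 23 nucleotide synthesis genes 20 rose and 1 fell, Impdh1, whose call was lost without P214L 2 or without WT 1. These lists share the background of 14.6% per direction. In none of the 3 first lists did more than 1 member reach 2-fold.

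Odc1, the rate-limiting enzyme of polyamine synthesis and a MYC target, stood at 193, 207 and 210.1 CPM in P214L libraries, against 121, 114 and 118 CPM in WT libraries (1.73-fold, adjusted p = 8.45e-08). Tipin, a protector of replication forks, stood at 82.1, 84.7 and 81.9 CPM in P214L libraries, against 43.8, 45.4 and 39.0 CPM in WT libraries (1.94-fold, adjusted p = 5.21e-08). Cdk1, the kinase that drives entry into mitosis, stood at 109, 102 and 108 CPM in P214L libraries, against 69.2, 61.1 and 64.2 CPM in WT libraries (1.64-fold, adjusted p = 9.13e-07). In each the lowest P214L library lay above the highest WT library. Mcm2, a subunit of the replicative helicase, rose 1.41-fold, Pcna, the polymerase clamp, 1.57-fold, and Mthfd2, the mitochondrial folate enzyme, 2.17-fold. Myc itself rose 1.58-fold to 176 ± 7.19 CPM in P214L cells, against 112 ± 15.5 CPM in WT cells, while Mycn fell 1.52-fold.

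Of 25 nuclear transport genes 15 rose and none fell, against 14.6% of all genes in each direction, with a median of 0.32. Those that rose included the GTPase Ran (1.55-fold), its binding protein Ranbp1 (1.80-fold) and the importin Kpna2 (1.55-fold). Of 23 cholesterol synthesis genes 16 rose and none fell (median 0.50). Idi1, an isomerase of that pathway, stood at 26.1, 25.4 and 23 CPM in P214L libraries, against 8.24, 9.35 and 10.5 CPM in WT libraries, a 2.64-fold rise with no overlap (adjusted p = 4.04e-07), and Cyp51, a demethylase of the same pathway, rose 2.22-fold. Of 28 nuclear genes of oxidative phosphorylation 21 rose and none fell (median 0.30). Phgdh and Psat1, enzymes of serine synthesis, rose 2.15-fold and 1.94-fold, whereas Psph of the same pathway was not called, and Asns, asparagine synthetase, rose 2.15-fold, in a list of 26 tested amino acid and tRNA synthetase genes in which 12 rose and 1 fell, the stress factor Ddit3.

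Of 26 tested genes of glycolysis and the hypoxia response 7 rose (26.9%) and 3 fell (11.5%). The falls did not exceed the 14.6% of all genes in that direction. Without the first libraries of WT, ZsGreen and I209S P214L 12 rose. Slc2a3, the glucose transporter GLUT3, stood at 145, 139 and 157 CPM in P214L libraries, against 518, 495 and 499.8 CPM in WT libraries, a 3.43-fold fall without overlap (adjusted p = 1.12e-12), and Hk1 and Pkm fell as well. Pgk1 rose 1.61-fold to 669 ± 10.03 CPM in P214L cells, against 416 ± 29.9 CPM in WT cells, and Ldha, lactate dehydrogenase, rose 1.36-fold. Among 23 chaperone and unfolded protein response genes 11 rose, such as the mitochondrial chaperonin Hspd1 (1.68-fold), and 3 fell, such as the stress sensor Ern1 (2.00-fold).

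**Figure D3:**
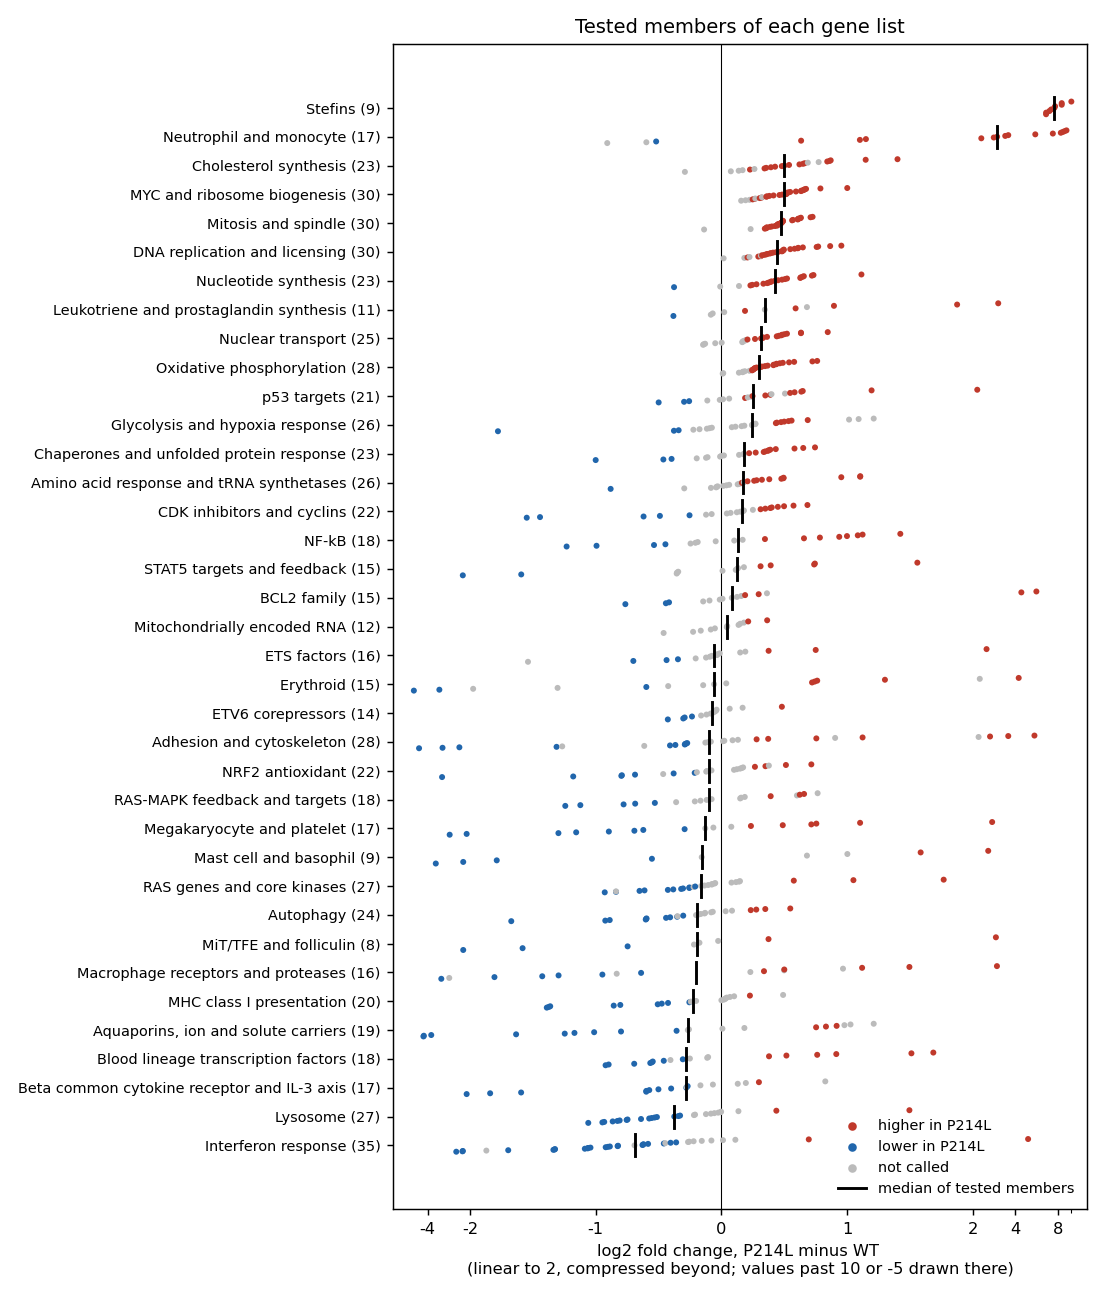
Log2 fold change of P214L over WT for every tested member (dots) of the gene lists with at least 8 tested members, with a bar at each list's median and a line at 0; the axis is linear to 2 and compressed beyond, and values past 10 or -5 are drawn there. The stefin median (7.57) and neutrophil median (2.98) lie far right, the medians of the ribosome biogenesis, replication, mitosis and nucleotide lists lie between 0.43 and 0.50, and the interferon median (-0.69) lies farthest left.

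Among signalling genes downstream of RAS, Pik3cg, the gamma isoform of phosphoinositide 3-kinase, stood at 315, 299 and 313 CPM in P214L libraries, against 93.9, 86.0 and 92.0 CPM in WT libraries. It rose 3.41-fold (log2 fold change 1.77 ± 0.07, adjusted p = 4.45e-12), and Pik3cd, the delta isoform, rose 2.07-fold, both without overlap. The scaffold Ksr1 fell 1.79-fold to 91.2 ± 6.3 CPM in P214L cells, against 163 ± 12.1 CPM in WT cells. Of 27 tested RAS genes and kinases 3 rose (11.1%) and 11 fell (40.7%), against 14.6% of all genes in each direction. The rises, Pik3cg and Pik3cd included, thus did not exceed that share. Only 6 fell without P214L 1 and 7 without P214L 2. Of 18 tested feedback genes and targets of the pathway 3 rose, near the 14.6% of all genes, and 5 fell. Spred1, an inhibitor of RAS signalling, fell 1.61-fold, and its relative Spred2 rose 1.31-fold.

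Of 18 tested NF-kB genes 8 rose and 4 fell, with a median of 0.14, against 14.6% of all genes in each direction, and without P214L 2 there were 2 that fell. The inhibitor Nfkbia, itself induced by NF-kB, rose 1.72-fold to 120.0 ± 10.2 CPM in P214L cells, against 69.6 ± 4.48 CPM in WT cells, and its relative Nfkbid rose 2.12-fold, whereas Nfkbiz fell 2.35-fold. Of 21 tested p53 target genes 10 rose and 3 fell, the falls being near the 14.6% of all genes. Without P214L 3 there was 1 that fell, and Trp53 itself rose 1.57-fold. Among 15 tested BCL2 family genes 4 rose (26.7%) and 3 fell (20%), against 14.6% of all genes in each direction. Death-promoting and protective members were called in both directions. Bax and Bid, which promote death, rose with the protective Bcl2a1b, and the protective Bcl2l2 fell with the death promoter Bad. The death inducer Bcl2l11 (BIM) fell 1.70-fold to 49.3 ± 4.88 CPM in P214L cells, against 83.8 ± 5.66 CPM in WT cells, and the protective Bcl2a1d, one of a set of near-identical genes, had 105 counts in P214L and 2 in WT, a ratio of 59.3 (counting interval 16 to 496). Without WT 2 there were 2 BCL2 family members that rose and 1 that fell, and without P214L 2 there was 1 that fell. Among cyclins and inhibitors 8 of 22 rose (36.4%) and 5 fell (22.7%), against 14.6% of all genes in each direction. The inhibitors Cdkn2b and Cdkn1b fell 2.72-fold and 1.4-fold, Rb1 fell 1.54-fold, and the repressor E2f8 rose 1.61-fold. The inhibitor Cdkn2a fell too, whereas the inhibitor Cdkn1a rose, and the kinase Cdk6 fell.

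Among transcription factors the ETS family itself was mostly not called, with 3 of 16 tested members higher and 3 lower. Both were near the 14.6% of all genes in each direction. Erg, an ETS activator of stem cells and megakaryocytes, stood at 18.9, 13.4 and 17.8 CPM in P214L libraries, against 2.99, 2.74 and 3.03 CPM in WT libraries, and rose 5.70-fold without overlap (adjusted p = 4.06e-08). Ets2 rose 1.68-fold, and Elk3 and Elf4 fell 1.63-fold and 1.35-fold. Spi1, the myeloid regulator PU.1, stood at 186 to 213 CPM in P214L libraries and 236 to 287 CPM in WT libraries, a fall (log2 fold change -0.34, adjusted p = 0.00357) in cells whose neutrophil genes rose. Lmo2, a bridging factor of early blood cells, stood at 66.9, 67.6 and 63.4 CPM in P214L libraries, against 22, 20.9 and 18.7 CPM in WT libraries (3.22-fold higher, adjusted p = 6.96e-10). Its partner Lyl1 fell 1.62-fold, and Klf6 and Zeb2 fell 1.86-fold and 1.89-fold. Of 18 tested blood lineage factors 6 rose and 8 fell. Among 14 tested corepressor genes 1 rose, the deacetylase Hdac2 (1.4-fold), and 4 fell, none as much as 2-fold.

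Markers of other lineages moved in both directions, and their part in the results above was not tested. Of all genes 14.6% were called in each direction. Among 15 erythroid genes 5 rose, such as the transferrin receptor Tfrc (1.65-fold), and 3 fell, with 5 falling without P214L 3. Hbb-bs, an adult beta globin gene, averaged 0.0985 ± 0.171 CPM in P214L cells and 8.07 ± 3.14 CPM in WT cells. Of 9 tested mast cell genes 2 rose and 4 fell, with Hdc, the histamine-forming enzyme, 5.98-fold higher and the chymase Cma1 3.45-fold lower, and Kit had no count. Of 4 tested T-lineage genes Lat and Tcf7 fell. Of 3 tested fibroblast genes Acta2 rose 4.32-fold to 8.83 ± 2.07 CPM in P214L cells, against 2.04 ± 0.567 CPM in WT cells, Fbn1 was lower with a call lost without any of the P214L libraries, WT 1 or WT 3, and Vim was called when WT 1 was left out. In bulk RNA, fewer cells of a type and less RNA per cell cannot be told apart.

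Adhesion genes fell in 10 of 28 cases and rose in 7, against 14.6% of all genes in each direction, with 6 falling without P214L 2. Itgb7, an integrin beta chain, fell 2.48-fold and Ahnak2, a large scaffold protein, fell 5.21-fold to 32.0 ± 1.25 CPM in P214L cells, against 167 ± 3.09 CPM in WT cells. Neat1, the nuclear RNA of paraspeckles, stood at 175, 133 and 145 CPM in P214L libraries, against 394, 483 and 379 CPM in WT libraries, a 2.77-fold fall without overlap (adjusted p = 1.68e-08). Mitochondrially encoded RNA took 1.18 to 1.24% of counts in P214L libraries and 1.01 to 1.29% in WT libraries, which overlapped, and of 12 such genes 2 were called higher, and 1 without P214L 1, P214L 3, WT 1 or WT 2.

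The 6 libraries outside the comparison place these levels. With the changes against ZsGreen set side by side, which share the ZsGreen libraries with each other and the P214L or WT libraries with the comparison above, the median of the mitosis list was -0.21 for P214L, -0.67 for WT and -0.78 for I209S P214L. For the interferon list the medians were -0.13 for P214L, 0.59 for WT and 0.60 for I209S P214L, and for the lysosome list 0.28 for P214L, 0.69 for WT and 0.66 for I209S P214L. The neutrophil list had 0.94 for P214L, -2.26 for WT and -3.03 for I209S P214L, and the stefins 1.76 for P214L, -6.34 for WT and -6.57 for I209S P214L. P214L thus lay between ZsGreen and WT in the mitosis and lysosome lists, and on the far side of ZsGreen from WT in the neutrophil, stefin and interferon lists. S100a8 averaged 22.5 CPM in P214L cells, 0.0380 CPM in WT cells, 0.0179 CPM in I209S P214L cells and 4.08 CPM in ZsGreen cells. Csf2rb was an intermediate case, at 671 CPM with P214L, 2027 CPM with WT, 2158 CPM with I209S P214L and 343 CPM with ZsGreen.

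I209S P214L against ZsGreen is a second comparison in the same fit that uses none of the 6 libraries of P214L and WT. It called 6138 genes (41.5%), 3081 higher in I209S P214L cells (20.8%) and 3057 lower (20.7%). Of the 2157 genes higher in P214L than in WT cells, 1862 (86.3%) were lower in I209S P214L than in ZsGreen cells, 10 were higher and 285 were not called. Of the 2162 genes lower in P214L cells, 1828 (84.6%) were higher in I209S P214L cells, 6 were lower and 328 were not called. The 3690 genes with opposite calls made up 85.4% of the calls of P214L against WT and 60.1% of those of I209S P214L against ZsGreen. Leaving out the first libraries of WT, ZsGreen and I209S P214L, which shifted together on the second principal component, gave 3881 such genes. Across the tested genes, which are not independent replicates, the 2 log2 changes had a correlation of -0.694. Of the genes at least 2-fold changed, 302 of 376 higher and 330 of 379 lower had the opposite call.

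Called in the same direction in both comparisons were 16 genes (0.370% of the calls of P214L against WT). They were chosen here after their values were seen, and include Mecom, the stem cell factor EVI1, Cd47, the signal that blocks phagocytosis, F2r, the thrombin receptor PAR1, Fcgr2b, the inhibitory receptor for IgG, and Trpm2, a calcium channel. Mecom stood at 207 to 226 CPM in P214L libraries and 245 to 254 CPM in WT libraries, a small difference (1.17-fold lower, adjusted p = 0.00975) that was not called without P214L 1 or without P214L 2.

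**Figure D4:**
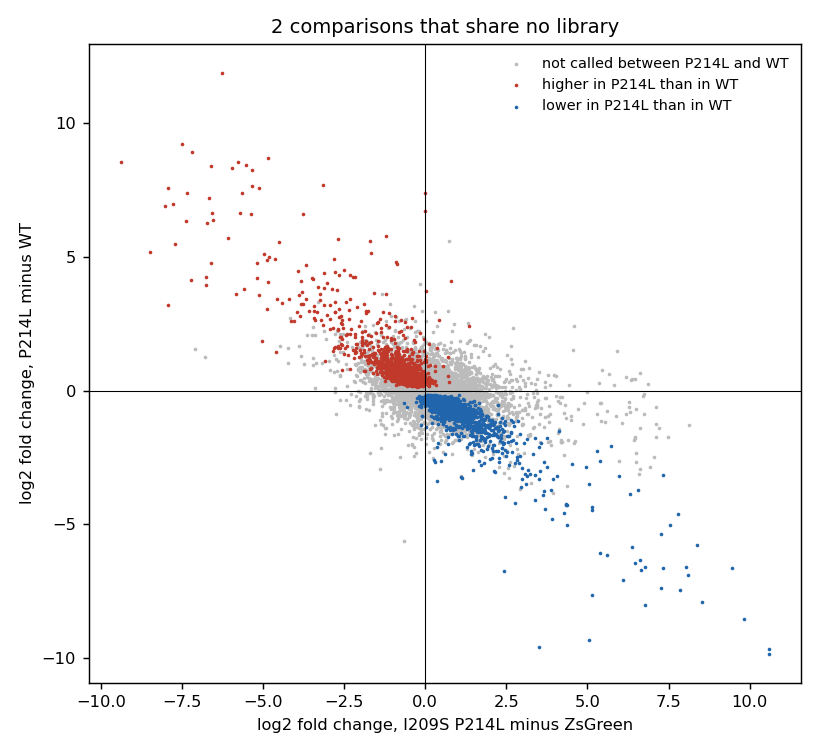
Each point is a tested gene, with the log2 fold change of I209S P214L over ZsGreen across and that of P214L over WT up, from 2 sets of libraries that do not overlap. The cloud runs from upper left to lower right, with 3690 genes called in opposite directions and 16 in the same direction.

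Promoter letters were also counted for the other ETS-type motifs, on both strands of 300 bases of RefSeq sequence (GRCm38.p6), for the 9792 tested genes found in the table. CCGGAAGT, the long ETS site typical of housekeeping promoters, contains GGAAGT. It lay in 2 of 332 promoters of genes at least 2-fold higher in P214L cells (0.602%) and 5 of 334 of genes at least 2-fold lower (1.5%). Its share was 8.48% for all tested genes, 7.92% for all higher genes and 5.87% for all lower genes. GGAAGGAA, a pair of ETS cores in tandem, lay in 9.64% of promoters of genes at least 2-fold higher and 2.99% of those at least 2-fold lower. For all tested genes its share was 3.73%, for all higher genes 5.2% and for all lower genes 3.7%. Matches describe these windows and do not show binding.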

How the data were processed

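RNA was sequenced from 12 libraries of Ba/F3 cells. Per the submitters' processing notes, reads were aligned with HISAT2 2.0.5 to mm39 and counted per gene with featureCounts 1.5.0-p3. The deposited table holds raw read counts for 56748 genes, 30009 of them without a count in any library; it is not clear from the labels' protocols whether the libraries kept strand, so counts of genes overlapping in antisense are uncertain. The authors also deposited a log2 fold change and a p-value and adjusted p-value per comparison, used here only for a count of shared calls, and gene length and position per the file headers.

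Genes were filtered with filterByExpr over the 4 groups, scaled by TMM and fitted in edgeR 4.0.16 (R 4.3.3) with 1 mean per group over all 12 libraries, and P214L minus WT was tested by the quasi-likelihood F-test. P-values were adjusted by the Benjamini-Hochberg method across the 14794 genes tested. Every adjusted p printed comes from this fit. CPM use TMM factors; ± is the SD of 3 libraries for levels and the SE for log2 fold changes. Where a group had no count a floor of 3 counts over the group gave a bound, and with 1 to 3 counts a 95% counting interval; both cover counting error only. limma 3.58.1 and DESeq2 1.42.0 were alternatives. The steps were tested on simulated data.

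Named were Etv6, Nras, Xpo1, Il3, Csf2rb and Csf2rb2, the 15 largest rises and 15 largest falls among called protein-coding genes with at least 5 CPM and no overlap, and up to 4 genes per list with the smallest adjusted p; a few of these are not reported here. Genes named as the only members that moved, Spi1, and the platelet genes Pf4, Gp9, Selp, Thbs1 and P2ry1 were added after their values were seen. The comparison, the members and the 42 lists were chosen with earlier results of these data known. Between the P214L and WT libraries equal replicate numbers did not deviate together (correlations -0.0610, -0.0164 and 0.0541), so they were not used as pairs. The other groups were not set against each other in this way. The first libraries of WT, ZsGreen and I209S P214L did shift in the same direction on the second principal component, as given above.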

Additional observations from a re-analysis of the deposited data

How the results depend on the processing

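Under 16 alternatives the number of genes higher in P214L cells ranged between 1490 and 2558, the number lower between 1450 and 2360 and the number changed at least 2-fold between 605 and 905, all within 1.5 times the values reported, and no call of the 181 genes followed changed sign. Leaving out 1 library of either group gave 1750 to 2051 higher, 1638 to 1919 lower and 658 to 704 changed at least 2-fold. With a replicate block 2276 were higher and 2246 lower, and 4262 of the 4319 calls were kept in the same direction. The numbers did not pair P214L with WT libraries, and the block is given for completeness. DESeq2 gave 2290 higher and 2319 lower, limma-voom 2234 and 2148, and upper quartile scaling 2364 and 2002. Among 2892 gene values, 27 lost the call, in 7 genes (Tfe3, Bid, Sin3b, Cd79b, Fbn1, Mecom and mt-Cytb), and 9 gained it, in Vim and Gas5; the cause was not tested. Of 1344 list counts 59 moved by more than 1.5 times. With 3 libraries a group an exact permutation test of a single gene cannot go below 0.1, so single calls rest on the spread shared across genes.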

Other observations

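Genes at least 2-fold higher in P214L than in WT cells often stood next to each other on the chromosome. Of 305 such protein-coding genes 61 (20%) had another as the nearest tested protein-coding neighbour on one side or the other, against 4.71% of the remaining genes, and of 289 genes at least 2-fold lower 55 (19%) had such a neighbour, against 4.62%. The runs below were chosen after their values were seen, and near copies among them share reads.

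There were 6 runs of 3 or more neighbours that were higher, and 3 that were lower. Besides the 9 stefins, a run of 5 C-type lectin receptor genes on chromosome 6 was higher: Clec4d averaged 86.3 ± 15.1 CPM in P214L cells and 18.8 ± 3.19 CPM in WT cells, and Clec4e, the receptor Mincle, averaged 65.7 ± 13.4 CPM in P214L cells and 23.3 ± 1.37 CPM in WT cells. Ms4a3, a membrane protein of granulocyte progenitors, averaged 358 ± 33.6 CPM in P214L cells and 51.7 ± 1.15 CPM in WT cells and stood beside Ms4a6d, Ms4a2 and Oosp1 on chromosome 19. Lower in P214L cells were the neighbours Mtap, Cdkn2a and Cdkn2b on chromosome 4, of which Mtap, an enzyme of methionine salvage, averaged 287 ± 6.62 CPM in P214L cells and 579 ± 16.8 CPM in WT cells. Kash5, beside Gfy and Pth2 on chromosome 7, had 2 counts in P214L and 361 in WT, and Gfy had 0 and 257.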
